A study of Mus musculus with 8 samples.

Results

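The genes described here encode 10 enzymes of NADPH supply. They are G6pdx, Pgls, Pgd, Rpia, Tkt and Taldo1 of the pentose phosphate pathway, the cytosolic enzymes Me1 and Idh1, and the mitochondrial enzymes Idh2 and Nnt. Members were taken by gene symbol, and all 10 were found among the 18645 genes of the HSC table and the 17408 genes of the BMDM table. RNA of C57BL/6 mouse cells was sequenced with a stranded mRNA kit, in 2 vehicle and 2 auranofin libraries for each cell type, 8 in all. Hepatic stellate cells (HSC), isolated from the liver and activated by culture on plastic, were left without drug or given 0.03 µM auranofin, a gold compound, for 12 h. Bone marrow-derived macrophages (BMDM), grown with M-CSF from the marrow of mice aged 8 weeks, all received LPS at 100 ng/mL for 4 h of priming and then 1 mM ATP, with or without auranofin for 1 h. The auranofin dose of the BMDM was 0.1 µM by the sample labels and 0.3 µM by the study's figure legend. Neither source says whether replicates came from separate animals or cultures, so p-values measure only the spread between these libraries.

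NADPH is the reducing cofactor with which cells regenerate glutathione and thioredoxin and build lipids. The oxidative branch of the pentose phosphate pathway reduces NADP+ while it turns glucose 6-phosphate into ribulose 5-phosphate, and the non-oxidative branch returns pentoses to glycolysis. Malic enzyme and the NADP-dependent isocitrate dehydrogenases supply NADPH outside this pathway, and the transhydrogenase of the inner mitochondrial membrane makes it with electrons from NADH. Several of these genes are known targets of NRF2, a transcription factor released by oxidants and electrophiles that binds antioxidant response elements.

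RefSeq promoters of mm10 (GRCm38.p6), from 250 bases before to 50 bases after a transcript start, were found for 9 of the 10 members, with 12 starts in all. They were searched on both strands for the core of the antioxidant response element, TGACNNNGC. A match was held by 3 of the 12 member promoters and by 12.4% of all 32851 promoters. Shown are the 3 members with a match, with both starts of Pgd and 1 of the 2 starts of Me1. Taldo1, which passed the test in HSC and held none, is shown too. Idh1 also passed the test in HSC and held no match at either start, and is not shown. Each sequence covers 120 bases before and 25 bases after the start, 5′ to 3′ on the gene's strand, with the match in capitals.
G6pdx, chrX:74428856-74429000, minus strand: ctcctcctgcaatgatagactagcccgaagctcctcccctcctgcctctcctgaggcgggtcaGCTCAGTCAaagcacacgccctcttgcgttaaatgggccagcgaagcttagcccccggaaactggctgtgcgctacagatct
Pgd, start without a match, chr4:149166681-149166825, minus strand: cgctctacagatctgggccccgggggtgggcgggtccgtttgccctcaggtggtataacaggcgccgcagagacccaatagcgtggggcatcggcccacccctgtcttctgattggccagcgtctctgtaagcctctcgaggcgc
Pgd, start with a match, chr4:149166058-149166202, minus strand: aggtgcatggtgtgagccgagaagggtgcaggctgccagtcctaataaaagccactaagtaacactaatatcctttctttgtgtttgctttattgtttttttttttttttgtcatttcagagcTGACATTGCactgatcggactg
Taldo1, chr7:141392040-141392184, plus strand: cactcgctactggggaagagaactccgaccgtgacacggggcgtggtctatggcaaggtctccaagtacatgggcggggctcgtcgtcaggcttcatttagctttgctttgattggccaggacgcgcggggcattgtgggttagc
Me1, start with a match, chr9:86695890-86696034, minus strand: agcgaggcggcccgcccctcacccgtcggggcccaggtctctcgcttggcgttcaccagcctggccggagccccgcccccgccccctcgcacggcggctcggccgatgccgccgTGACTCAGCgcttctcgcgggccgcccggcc

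The match of G6pdx lay at positions -57 to -49, where 1 is the start and -1 the base before it, on the opposite strand. That of Me1 ran from position -6 to 3 and held the AP-1 motif TGACTCA. That of Pgd lay at positions 4 to 12 of 1 of its 2 starts, and so inside the transcript. This start lies within the gene, downstream of the other start. The bases before it, a run of t ending in cag, read like the end of an intron. Whether it acts as a promoter was not tested. These matches describe letters in the window and not binding.

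The values are FPKM, which scale fragments by transcript length and by library. Depth was estimated at 29800000 to 39400000 fragments in HSC and 27500000 to 34900000 in BMDM. Stellate markers summed to 4278 and 4391 FPKM in the vehicle HSC libraries and to 3756 and 3803 FPKM after auranofin, with 1 of 10 passing the test (Acta2, lower). The HSC libraries also held 10 macrophage markers, at sums of 6712 and 6773 FPKM in vehicle and 6562 and 6609 FPKM after auranofin, with Clec4f higher and Mrc1 lower. The 7 endothelial markers summed to between 199 and 228 FPKM, with Stab2 lower, and the 6 hepatocyte markers found were each under 1 FPKM on average. The part of these other cells in the HSC results was not tested, and fewer cells of a type cannot be told apart from less RNA per cell. In BMDM the macrophage markers summed to between 7053 and 7962 FPKM and the stellate markers to at most 15.8 FPKM. BMDM auranofin replicate 1 stood apart. Among 4245 genes averaging 10 FPKM or more, it differed at least 2-fold from auranofin replicate 2 in 383 and from vehicle replicate 1 in 368, where the vehicle libraries differed in 14. The labels name no difference between the auranofin libraries, and every BMDM result is therefore given by library.

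The comparison in HSC asked which mRNAs differed after 12 h of auranofin. Pgd, Taldo1 and G6pdx rose, with mean FPKM 1.70, 1.63 and 1.57 times the vehicle mean, and Idh1 rose to 1.18 times. Thus 4 of the 10 members were higher and 0 lower at an adjusted p under 0.05 (limma on log2(FPKM + 1), Benjamini-Hochberg adjustment over all genes tested). Of the 12149 genes tested, 2.33% were called, 1.24% higher and 1.09% lower. The median log2 fold change was 0.22 over the members and 0.0049 over all genes tested.

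G6pdx (chrX:74409483-74428880, minus strand) encodes glucose-6-phosphate dehydrogenase, the first and rate-limiting enzyme of the oxidative branch. Its level was 69.5 and 70.7 FPKM in the vehicle HSC libraries against 112 and 109 FPKM after auranofin. Both auranofin libraries lay well above both vehicle libraries. Its log2 fold change of 0.65 had a standard error of 0.03 (limma adjusted p = 0.00216) and was rank 61 from the top of the 12149 genes. G6pdx overlaps Ikbkg on the other strand, and the counting is not stated to use strand.

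Pgls (chr8:71592184-71596267, plus strand) encodes 6-phosphogluconolactonase, which hydrolyses the product of G6pdx. Vehicle libraries held 90.1 and 86.1 FPKM and auranofin libraries 87.8 and 89.6 FPKM. The groups overlapped. Its log2 fold change was 0.01, with a 95% confidence interval from -0.08 to 0.10, and its difference from the other genes of the branch was not tested. Pgls overlaps Fam129c on the same strand.

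Pgd (chr4:149149991-149166705, minus strand) encodes 6-phosphogluconate dehydrogenase, which reduces NADP+ in the last step of the branch. Its level was 202 and 206 FPKM in vehicle libraries against 353 and 340 FPKM after auranofin. The gap between the groups was far wider than the gap within either. Its log2 fold change of 0.76 had a standard error of 0.04 (limma adjusted p = 0.00174) and was the largest of the members, at rank 38 of all genes tested. Within a library, Pgd was 2.24 and 2.40 times Pgls in vehicle and 4.03 and 3.80 times after auranofin.

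Of the non-oxidative branch, Taldo1 passed the test. Taldo1 (chr7:141392160-141402976, plus strand), transaldolase, was at 305 and 294 FPKM in vehicle libraries and reached 503 and 472 FPKM after auranofin, the highest level of the members in HSC. Both auranofin libraries were above the vehicle libraries, by a log2 fold change of 0.70 with a standard error of 0.04 (limma adjusted p = 0.00339). Tkt (chr14:30549131-30574724, plus strand), transketolase, was at 135 and 140 FPKM in vehicle and at 159 and 156 FPKM after auranofin. Its groups did not overlap, and the log2 fold change of 0.20 (95% confidence interval from 0.11 to 0.29) gave a limma adjusted p of 0.0590. With each of the 4 libraries left out in turn, Tkt passed only without vehicle replicate 2, and its log2 fold change ranged from 0.17 to 0.23. Rpia (chr6:70765720-70792175, minus strand), ribose-5-phosphate isomerase, makes ribose 5-phosphate from the product of the oxidative branch. Its vehicle levels were 7.03 and 7.07 FPKM and its auranofin levels 6.46 and 6.12 FPKM. Both auranofin values of Rpia lay below vehicle, with a log2 fold change of -0.14 (95% confidence interval from -0.27 to -0.02, limma adjusted p = 0.232).

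Outside the pathway, both cytosolic enzymes had positive values. Idh1 (chr1:65158616-65186479, minus strand), cytosolic isocitrate dehydrogenase, was at 99.7 and 99.2 FPKM in vehicle and at 119 and 115 FPKM after auranofin. Both auranofin libraries were higher, by a log2 fold change of 0.23 with a standard error of 0.03 (limma adjusted p = 0.0353). This call was lost without auranofin replicate 1 (limma adjusted p = 0.145) and without auranofin replicate 2 (limma adjusted p = 0.0699). Me1 (chr9:86581363-86695914, minus strand), cytosolic malic enzyme, was at 39.0 and 35.3 FPKM in vehicle and at 46.8 and 44.6 FPKM after auranofin. These groups did not overlap, and the log2 fold change of 0.29 had a limma adjusted p of 0.0654. With each of the 4 libraries left out in turn, Me1 passed only without vehicle replicate 1, and its log2 fold change ranged from 0.22 to 0.36.

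Neither mitochondrial enzyme passed the test. Idh2 (chr7:80094845-80118608, minus strand), mitochondrial isocitrate dehydrogenase, was at 42.6 and 43.0 FPKM in vehicle and at 40.2 and 41.6 FPKM after auranofin. The auranofin values lay just under the vehicle values, with a log2 fold change of -0.06 (95% confidence interval from -0.15 to 0.03). Nnt (chr13:119335527-119409257, minus strand), the transhydrogenase, was at 24.2 and 22.2 FPKM in vehicle and at 23.4 and 23.5 FPKM after auranofin. Its groups overlapped, with a log2 fold change of 0.02 (95% confidence interval from -0.11 to 0.14). The C57BL/6J substrain carries an internal deletion in Nnt that C57BL/6N lacks, and the labels give only C57BL/6.

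**Figure D1:**
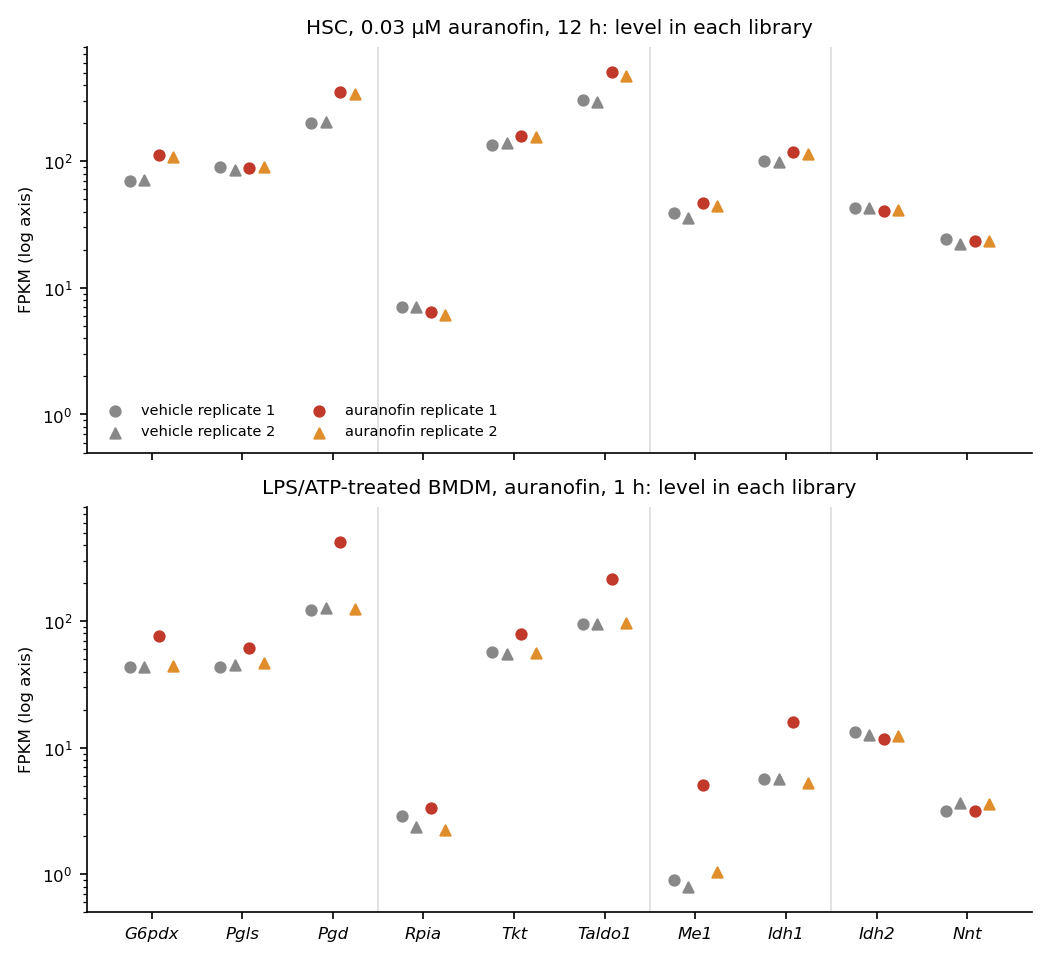
Level of each member in each library, in FPKM on a log axis, with HSC above and LPS/ATP-treated BMDM below; grey marks are vehicle libraries, red and orange marks auranofin libraries, circles replicate 1 and triangles replicate 2. In HSC both auranofin marks sit above the vehicle marks for G6pdx, Pgd, Tkt, Taldo1, Me1 and Idh1. In BMDM auranofin replicate 1 stands away, with Pgd at 419 FPKM against 125 FPKM in replicate 2.

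In HSC, 6 members had both auranofin libraries above both vehicle libraries, 2 had both below, and 2 overlapped. Over all genes tested, 26.2% lay wholly above and 23.9% wholly below. At 1.5-fold and an unadjusted p under 0.05, 3 members were higher (G6pdx, Pgd and Taldo1) and 0 lower. By that rule 0.576% of all genes were called, 0.428% higher and 0.148% lower. These 3 members were also at least 1.5-fold above the vehicle mean on the log2(FPKM + 1) scale in each auranofin library, as were 0.617% of all genes in replicate 1 and 0.642% in replicate 2. By limma, 7 members had an unadjusted p under 0.05 against 17.8% of all genes. Without auranofin replicate 1, the members called were G6pdx, Pgd and Taldo1, where 0.774% of all genes were called higher and 0.683% lower. Without auranofin replicate 2 they were the same 3, where 0.980% were called higher and 0.905% lower. With 2 libraries a group, an exact two-sided permutation test of a single gene cannot give a p under 0.3333.

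By branch, G6pdx, Pgls and Pgd summed to 362 and 363 FPKM in the vehicle HSC and to 553 and 539 FPKM after auranofin. Rpia, Tkt and Taldo1 summed to 447 and 441 FPKM in vehicle and to 669 and 634 FPKM after auranofin. Idh2 and Nnt together stayed between 63.6 and 66.7 FPKM in the 4 libraries. The order of vehicle levels was Taldo1, Pgd, Tkt, Idh1, Pgls, G6pdx, Idh2, Me1, Nnt and Rpia, and the replicates of neighbours did not overlap. After auranofin, G6pdx passed Pgls and Me1 passed Idh2 in that order.

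In BMDM the question was which mRNAs differed after 1 h of auranofin. Auranofin replicate 1 was above both vehicle libraries in 7 of the 9 members other than Me1, against 64.0% of all genes. Me1 is left out of this count because replicate 1 brought it into the test. Replicate 2 stayed within 0.17 of the vehicle mean on the log2(FPKM + 1) scale for every member. With both replicates, 0 members had a limma adjusted p under 0.05 and 0 had an unadjusted p under 0.05, where 0.0108% (all higher, 0.00% lower) and 0.531% of the 9232 genes tested did. Adjusted p-values of the members ran from 0.721 to 0.987 by limma. At 1.5-fold and an unadjusted p under 0.05, 0 members were called, against 0.152% of all genes, 0.0867% higher and 0.0650% lower. Both auranofin libraries lay above both vehicle libraries for 4 members and below for 1, against 26.3% and 12.6% of all genes. Me1 is 1 of those 4, and its entry into the test depended on its level in auranofin replicate 1.

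Pgd was at 122 and 126 FPKM in the vehicle BMDM, at 419 FPKM in auranofin replicate 1 and at 125 FPKM in auranofin replicate 2. The second auranofin library thus lay inside the vehicle range while the first was 3.38 times the vehicle mean. G6pdx was at 43.1 FPKM in both vehicle libraries, and at 76.5 and 43.9 FPKM in auranofin replicates 1 and 2. Pgls was at 43.6 and 45.0 FPKM in vehicle, and at 60.8 and 46.4 FPKM in auranofin replicates 1 and 2. Auranofin replicate 1 was therefore 1.77 times the vehicle mean in G6pdx and 1.37 times in Pgls. The ratio of Pgd to G6pdx was 2.82 and 2.93 in vehicle, 5.47 in auranofin replicate 1 and 2.84 in replicate 2. In HSC it was 2.91 in both vehicle libraries, and 3.15 and 3.13 in auranofin replicates 1 and 2.

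Of the non-oxidative enzymes, Taldo1 was at 94.6 and 94.9 FPKM in vehicle, and at 217 and 96.2 FPKM in auranofin replicates 1 and 2. Tkt was at 57.4 and 55.4 FPKM in vehicle, and at 79.2 and 56.0 FPKM in auranofin replicates 1 and 2. Again 1 library stood above the other 3 in both genes, at 2.29 times the vehicle mean for Taldo1 and 1.40 times for Tkt. Rpia was at 2.91 and 2.38 FPKM in vehicle, and at 3.36 and 2.24 FPKM in auranofin replicates 1 and 2, on either side of the vehicle values. By the estimated depth, the values of Rpia rest on about 158, 120, 215 and 141 fragments.

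Both cytosolic enzymes outside the pathway were low in vehicle BMDM. Idh1 was at 5.70 and 5.66 FPKM in vehicle, and at 16.0 and 5.28 FPKM in auranofin replicates 1 and 2. Me1 was at 0.897 and 0.800 FPKM in vehicle, and at 5.11 and 1.05 FPKM in auranofin replicates 1 and 2. In auranofin replicate 1 Idh1 was thus 2.82 times and Me1 6.03 times its vehicle mean. Both auranofin libraries of Me1 lay above vehicle, but its values rest on about 88, 73, 588 and 119 fragments, and it passed the filter of a mean of 1 FPKM only through auranofin replicate 1.

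For the mitochondrial enzymes, replicate 1 was not above both vehicle libraries. Idh2 was at 13.3 and 12.5 FPKM in vehicle, and at 11.6 and 12.3 FPKM in auranofin replicates 1 and 2, a log2 fold change of -0.10 (95% confidence interval from -0.41 to 0.21). Nnt was at 3.15 and 3.69 FPKM in vehicle, and at 3.18 and 3.62 FPKM in auranofin replicates 1 and 2. Both auranofin values of Nnt lay inside the vehicle range, with a 95% confidence interval of the log2 fold change from -0.39 to 0.38.

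**Figure D2:**
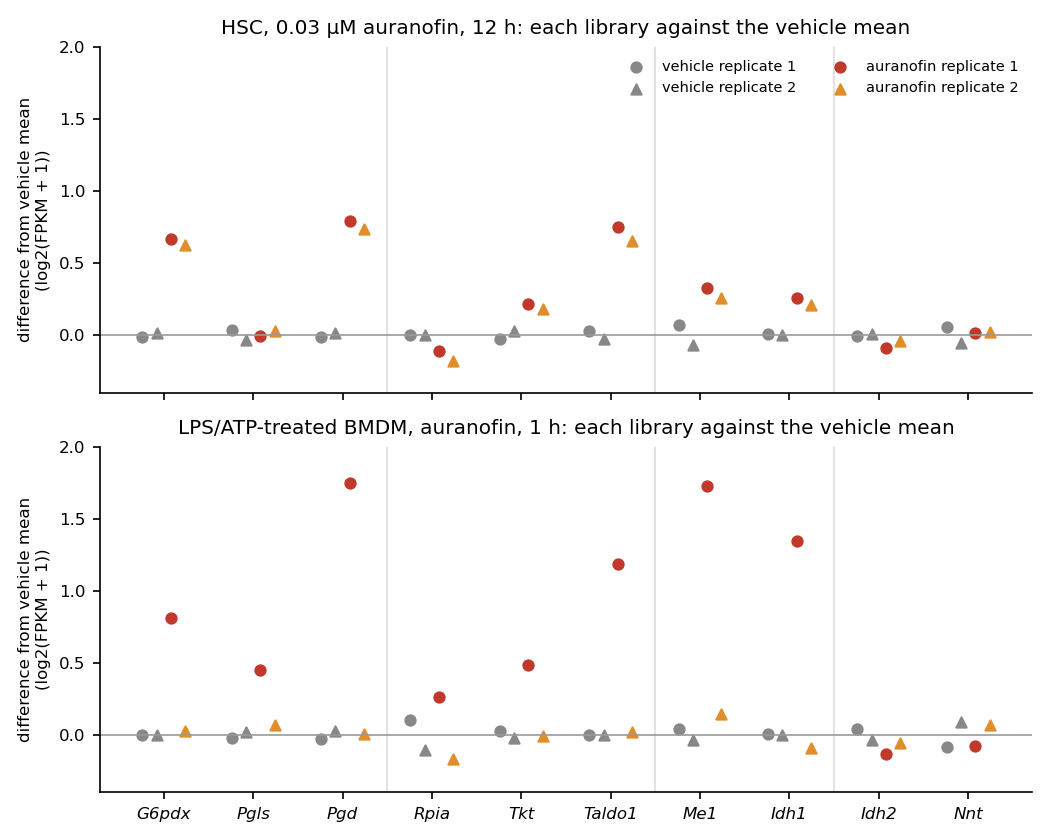
Difference of each library from the vehicle mean of its own table on the log2(FPKM + 1) scale, for the 10 members, with HSC above and BMDM below; marks are as in the plot of levels, and grey verticals part the oxidative branch, the non-oxidative branch, the other cytosolic enzymes and the mitochondrial enzymes. The HSC auranofin libraries lie close together, at 0.79 and 0.73 for Pgd, whereas in BMDM replicate 1 reaches 1.75 for Pgd and replicate 2 stays within 0.17 of the vehicle mean for every member.

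Me1 is left out of the counts that follow, because auranofin replicate 1 brought it into the test. The median log2 difference of the other 9 members from the vehicle mean was 0.48 in BMDM auranofin replicate 1 and 0.0091 in replicate 2, where all genes tested had medians of 0.18 and 0.0049. In replicate 1, 4 of the 9 (G6pdx, Pgd, Taldo1 and Idh1) were at least 1.5-fold above the vehicle mean, against 15.2% of all genes. In replicate 2 it was 0 members, against 0.379% of all genes. Without auranofin replicate 2 in the fit, limma called 6 of the 9 higher, the same 4 with Pgls and Tkt, but it also called 44.9% of all genes higher and 20.0% lower, with the lone auranofin library assumed to vary as the vehicle libraries do. Without auranofin replicate 1, 0 members were called by limma, against 0.0650% of all genes higher and 0.0758% lower. The BMDM result thus turns on which auranofin library is read.

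**Figure D3:**
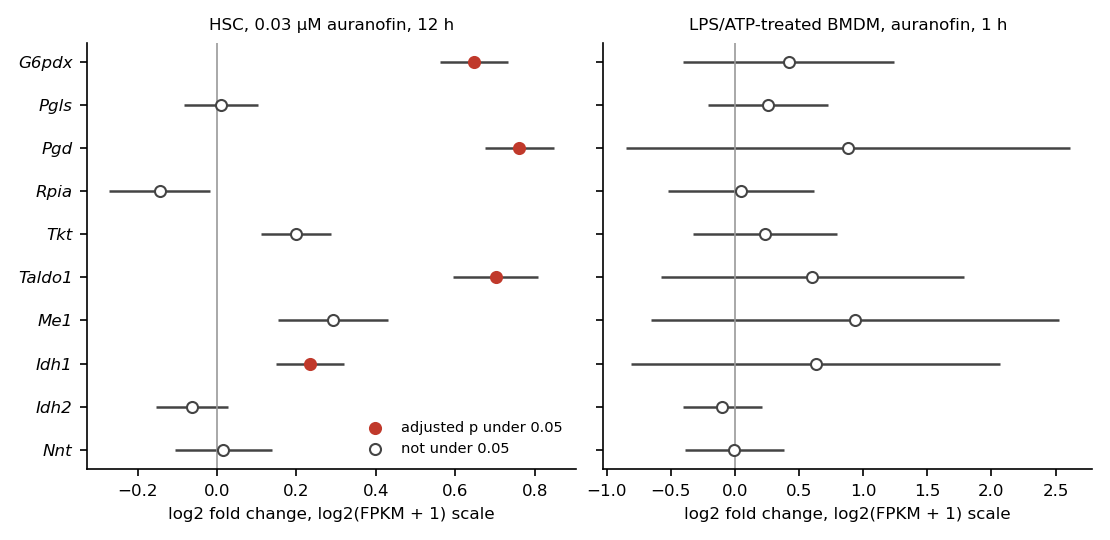
Log2 fold change of auranofin against vehicle on the log2(FPKM + 1) scale from limma, with its 95% confidence interval, for HSC (left) and BMDM (right); red points have an adjusted p under 0.05, and the 2 horizontal axes differ in range. In HSC the intervals of G6pdx, Pgd and Taldo1 begin at 0.56, 0.67 and 0.59, while in BMDM the interval of Pgd runs from -0.85 to 2.61.

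No test was made between the cell types, because dose and time differed and the tables were normalized separately. The HSC libraries also held macrophage markers, so the 2 tables do not set stellate cells alone against macrophages. Among the members other than Me1, Pgd, Idh1 and Taldo1 were highest above vehicle in BMDM auranofin replicate 1 on the log2(FPKM + 1) scale. Their differences there were 1.75, 1.35 and 1.19. In HSC their log2 fold changes were 0.76, 0.23 and 0.70. Replicate 1 brought Me1 into the test, so Me1 is left out of this order. Vehicle means of all 10 members were higher in the HSC table than in the BMDM table. As a ratio they lay farthest apart for Me1, at 37.1 ± 2.56 and 0.849 ± 0.0686 FPKM (SD, n = 2), and for Idh1, at 99.4 ± 0.356 and 5.68 ± 0.0271 FPKM (SD, n = 2). The order of levels in the vehicle BMDM was Pgd, Taldo1, Tkt, Pgls, G6pdx, Idh2, Idh1, Nnt, Rpia and Me1, with no overlap between replicates of neighbours.

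The isocitrate dehydrogenases stood in opposite order in the vehicle cultures. Within a library, the ratio of Idh1 to Idh2 was 2.34 and 2.31 in the vehicle HSC and 2.97 and 2.77 after auranofin. In BMDM it was 0.430 and 0.452 in vehicle, 1.38 in auranofin replicate 1 and 0.429 in replicate 2. The cytosolic form thus exceeded the mitochondrial form in all 4 HSC libraries and in 1 BMDM library.

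**Figure D4:**
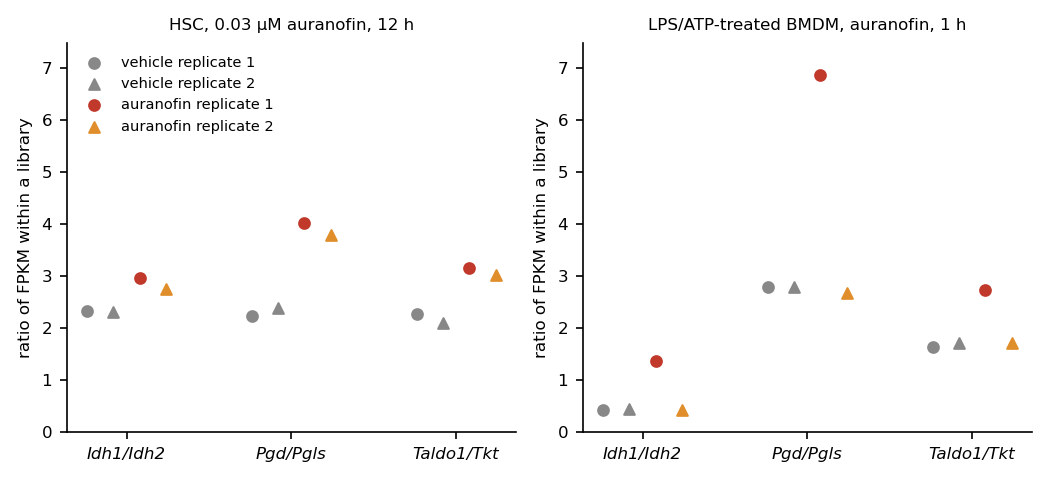
Ratio of FPKM between 2 members within a library, for Idh1 to Idh2, Pgd to Pgls and Taldo1 to Tkt, in HSC (left) and BMDM (right); marks are as in the plot of levels. In HSC the auranofin ratios lie above the vehicle ratios in all 3 pairs, and in BMDM auranofin replicate 1 stands alone, with Pgd to Pgls at 6.88 against 2.69 in replicate 2.

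Of 26 other genes listed for the pathway, 17 were tested in HSC, and limma called 1 higher and 0 lower at an adjusted p under 0.05. That gene was Aldoa, an aldolase shared with glycolysis, at 624 and 653 FPKM in vehicle and at 786 and 768 FPKM after auranofin. An unadjusted p under 0.05 was reached by 7 of the 17, all with positive log2 fold changes, where 17.8% of all genes reached it, and the median log2 fold change of the list was 0.07. A second list, of NADP-linked and folate enzymes, also held the subunits of the NAD-dependent isocitrate dehydrogenase. Of its 13 genes tested, limma called 0, 1 (Me2, mitochondrial malic enzyme) had an unadjusted p under 0.05, and the median was -0.03. In BMDM limma called 0 genes of either list, with 0 at an unadjusted p under 0.05. In auranofin replicate 1, 4 of 15 and 2 of 12 tested were at least 1.5-fold above the vehicle mean, against 15.2% of all genes. Nadk2, 1 of the 2 genes in the second list, passed the filter of a mean of 1 FPKM only through replicate 1. It was at 0.876 and 0.759 FPKM in vehicle, and at 2.12 and 0.816 FPKM in auranofin replicates 1 and 2. In replicate 1, 1 of the 12 was at least 1.5-fold below, namely Aldh1l1. It was at 7.29 and 6.82 FPKM in vehicle, and at 4.35 and 6.17 FPKM in auranofin replicates 1 and 2. In replicate 2, 0 of each list were at least 1.5-fold above, against 0.379% of all genes.

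Enzymes that use NADPH were listed beside its sources. In HSC, limma called 9 of 18 tested higher and 0 lower at an adjusted p under 0.05, where it called 1.24% of all genes higher and 1.09% lower. The largest were Nqo1 (a quinone reductase), Blvrb (biliverdin reductase B), Akr1b8 (an aldo-keto reductase), Gsr (glutathione reductase) and Txnrd1 (thioredoxin reductase), with log2 fold changes of 1.46, 0.88, 0.71, 0.68 and 0.65. Fasn, fatty acid synthase, had a log2 fold change of -0.09 and did not pass the test. Cybb, the phagocyte NADPH oxidase, was at 146 and 141 FPKM in vehicle and at 124 and 125 FPKM after auranofin, with a limma adjusted p of 0.0503. In BMDM limma called 0 of 17 tested, with 0 at an unadjusted p under 0.05. At least 1.5-fold above the vehicle mean were 8 in auranofin replicate 1, against 15.2% of all genes, and 0 in replicate 2, against 0.379%. Txnrd3, 1 of the 8, passed the filter of a mean of 1 FPKM only through replicate 1. It was at 0.955 and 0.718 FPKM in vehicle, and at 2.22 and 0.839 FPKM in auranofin replicates 1 and 2. In replicate 1, 1 of the 17 was at least 1.5-fold below, namely Nos2, inducible nitric oxide synthase, at 295 and 300.2 FPKM in vehicle and at 91.2 and 289 FPKM in auranofin replicates 1 and 2. Of 7 reference genes of NRF2 activity, among them Nqo1 and Txnrd1, limma called 7 higher in HSC, again against 1.24% of all genes, with a median log2 fold change of 1.18. In BMDM 6 of these were tested, with 0 called by limma, 0 at an unadjusted p under 0.05, and a median log2 difference from vehicle of 3.96 in auranofin replicate 1 and -0.05 in replicate 2. The cause of the split between the BMDM auranofin libraries was not tested.

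The genes nearest to G6pdx were sought over the log2(FPKM + 1) differences of the 4 auranofin libraries from vehicle, among 8963 genes tested in both tables. By Euclidean distance the first 5 outside the members were Abcb6 (0.05), Prkar2b (0.09), Akr1b8 (0.12), Creg1 (0.13) and Abcc4 (0.17). Of the members, Taldo1 was nearest, at 0.38 and place 23, and Tkt followed at 0.72 and place 178. Pgd was at 0.95, with a log2 difference of 1.75 in BMDM auranofin replicate 1 against 0.81 for G6pdx, and Idh2 was farthest, at 1.39. With 4 values a gene, this order is a description only.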

How the data were processed

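Samples were grouped by their labels, and columns were matched to samples by name. FPKM values were deposited by the authors in 1 table per cell type, on mm10. The submitters' processing notes name Trimmomatic 0.38, HISAT2 2.1.0 and StringTie 1.3.4d. Each table was fitted alone with limma 3.58.1 in R 4.3.3 (eBayes with trend) on log2(FPKM + 1), where the average over libraries was 1 FPKM or more, with Benjamini-Hochberg adjustment over all genes tested. Fold changes on this scale understate those of low genes. The tables hold no counts, so no count test was used. Depth was estimated from the spacing of low values, which are whole fragments over transcript length (GENCODE lengths), and fragment numbers use the longest matched transcript. The members and all gene lists were chosen with earlier results of these data known. Named were all members, the called genes of each list (at most 5 in each direction), and the 5 genes nearest to G6pdx. Aldh1l1, Cybb, Fasn, Me2, Nadk2, Nos2 and Txnrd3 were named after their values were seen. Gene identifiers matched the RefSeq table for 18601 genes in HSC and 17371 in BMDM. Alternatives changed the pseudocount, filter, normalization, variance trend, moderation, replicate block, call rule and libraries.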

Additional observations from a re-analysis of the deposited data

How the results depend on the processing

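Over 12 settings per cell type, 237 values of single members were recomputed, of which 205 kept their direction and side of the threshold, 8 lost the call, 11 gained it and 13 changed sign. No member called in HSC changed sign. The number of members called in HSC stayed within 1.5 times of 4 except without moderation, where limma called 0, as it did for all 12149 genes, and 5 members had an unadjusted p under 0.05 against 13.0% of all genes. Idh1 also lost its call without the filter (limma adjusted p = 0.0973) and without the variance trend (limma adjusted p = 0.0988), while Tkt gained one at a mean of at least 5 FPKM (limma adjusted p = 0.0468). Leaving out 1 library gave 3 to 5 members in HSC and 0 to 7 in BMDM, where the 7, Me1 included, came without auranofin replicate 2. Without vehicle replicate 1 and without vehicle replicate 2, 493 and 374 of the 12149 HSC genes were called, against 283 with all libraries. In HSC the log2 fold change of Pgls became -0.0106 with quantile normalization and -0.000285 with median centring, and ranged from -0.0223 to 0.0427 with 1 library left out, where Nnt ranged from -0.0405 to 0.0733. In BMDM Rpia became -0.0845 with quantile normalization and -0.0451 with median centring. With 1 library left out, BMDM values ranged from -0.17 to 0.26 for Rpia, from -0.00996 to 0.48 for Tkt, from -0.0887 to 1.35 for Idh1 and from -0.0924 to 0.0826 for Nnt. For Rpia, Tkt and Idh1 the lowest value came without auranofin replicate 1 and the highest without auranofin replicate 2. For Nnt the lowest came without vehicle replicate 1 and the highest without vehicle replicate 2. Why these libraries differ was not tested. The replicate number as a block gave 5 called members in HSC, adding Me1 (limma adjusted p = 0.0411), among 282 of 12149 genes, and 0 in BMDM. Deviations from the group means correlated between equal numbers by 0.11 across genes in HSC and -0.06 in BMDM, and the labels pair no samples. Counting error at the lowest member value, Me1 in BMDM, is about 11.7%.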
